A study of Homo sapiens with 6 samples.

Results

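Gene expression in 293T cells with an MLL2 knockout was compared with that in control 293T cells, using every gene that passed a filter on low counts. The comparison takes 4 of the 6 total RNA libraries of the study: 2 from control cells and 2 from cells in which MLL2 was knocked out with CRISPR/Cas9, chosen by their labels. The other 2 libraries, from cells with a PRMT1 knockdown by a short hairpin RNA, share the controls with the knockout. They entered the filter on low counts, the scaling and the estimate of the spread, but not the contrast itself. 293T is a transformed human embryonic kidney line. The labels state neither a clone nor the exon that was cut, and alignment names in the file headers (WTshNT for control, MKshNT for knockout) are not explained in the labels, so whether both groups also carried a hairpin is not known. Traits of a single clone and effects of the knockout cannot be told apart in such a design.

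MLL2 is a name that has been used for 2 related histone H3 lysine 4 methyltransferases, KMT2B and KMT2D. Enzymes of this family work in complexes with shared subunits such as RBBP5 and WDR5. KMT2B is known for methylating CpG-rich promoters, and KMT2D, with its partner KDM6A, for enhancers. Methylation of H3 lysine 4 is a mark of active and poised regulatory DNA, and it is known to keep DNA methylation away from CpG-rich promoters.

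Between 20614522 and 22351532 counts per library fell in genes, and 17575 genes passed the filter on low counts. Values are given per library in counts, or in CPM, the usual scaling of counts to the library's total, here after TMM adjustment. Changes are log2 values, knockout minus control, ± SE (n = 2 libraries a group). Adjusted p-values come from the quasi-likelihood test of edgeR, with the Benjamini-Hochberg method applied to the whole table, and a gene was called at an adjusted p under 0.05. The labels call the replicates biological without naming separate cultures, and the p-values measure only the spread between these libraries. KMT2B had 135 and 153 counts in the control libraries and 154 and 150 in the knockout (0.02 ± 0.25), and KMT2D had 450 and 346 against 449 and 494 (0.19 ± 0.26). Neither gene's RNA was called, and a short deletion or frameshift need not lower an RNA, so these values do not check the knockout. All 11 markers of 293T identity were tested, and 4 were lower (36.4%) and 0 higher, with a median log2 change of -0.45. Of all genes tested 12.1% were lower. The 4 were the keratin KRT8, the neurofilaments NEFL and NEFM, and LIN28B, which lies in a stretch of lower genes on 6q. Of 16 markers of blood, fibroblast, endothelial and liver cells, 4 passed the filter and 0 were called. Their summed level was 7.83 and 8.37 CPM in the control libraries and 7.58 and 5.69 CPM in the knockout, and CD3E, COL1A2 and LYZ had no count in any of these libraries. In bulk RNA, fewer cells of a type and less RNA per cell cannot be told apart.

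Most of the large changes in the knockout were losses. Calls were made for 3941 of the 17575 genes (22.4%), with 1817 higher (10.3%) and 2124 lower (12.1%), but past 2-fold the split was 124 higher (0.706%) and 790 lower (4.5%). Leaving out the 3 stretches with a negative median change (chromosome 8 from 50 Mb, chromosome 6 from 70 Mb, and chromosome 11 from 40 to 50 Mb) evened the directions but not this tilt. Of 16718 genes off the stretches, 3559 were called (21.3%), 1805 higher (10.8%) and 1754 lower (10.5%), and at 2-fold or more 122 were higher (0.73%) and 702 lower (4.2%). The median log2 change off the stretches was 0.05 over the 10937 genes with an average log2 CPM above 2. Leaving out control replicate 1 or 2 left 2157 or 1908 calls, and leaving out knockout replicate 1 or 2 left 2184 or 2255. Without control replicate 2, 79 genes were higher by 2-fold or more. The plot of change against level shows this tilt.

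**Figure D1:**
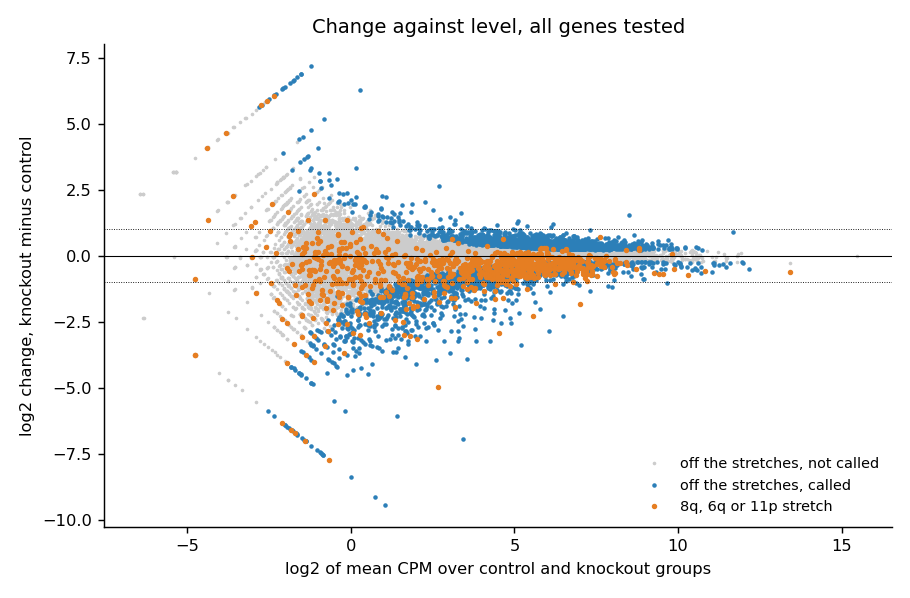
Each point is one of 17570 tested genes with a count in these 4 libraries: the horizontal axis is the log2 of its mean CPM and the vertical axis its fitted log2 change, with dotted lines at a change of 2-fold. Blue points, called genes off the stretches, reach further below 0 than above it, orange points of the 3 stretches sit mostly below 0, and the outer diagonal rows are genes with no count in a group, whose fitted change is no measured fold.

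In the knockout, 66 genes that both control libraries read were silent or nearly so. They were chosen by their counts, at least 10 in each control library and at most 3 in total in the knockout, so their loss is a description and carries no test. They were 66 of the 15519 genes with that control count (0.425%). KCNT2, a sodium-activated potassium channel subunit (chr1:196225779-196609225), had 131 and 80 counts in the control libraries and 0 and 3 in the knockout, a ratio of 73.2 (95% exact binomial interval 24.7 to 358). PKP3, a desmosome plaque protein (chr11:392614-404908), had 98 and 68 counts against 0 and 0, which makes it at least 28.8-fold lower with a floor of 3 counts a library. BEX1, a small X-linked protein of the nervous system (chrX:103062651-103064171), had 66 and 70 counts against 0 and 0, at least 23.6-fold lower. No knockout library held a read of PKP3 or BEX1, and both control libraries held many. GATA5, a zinc finger transcription factor of heart and gut development (chr20:62463497-62475995), had 31 and 50 counts against 0 and 0, at least 14.02-fold lower. Intervals and floors cover counting error only.

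By class, 39 of the 66 were protein-coding, 16 long noncoding other than antisense, 5 antisense, 4 pseudogenes and 1 a small RNA, and 1 had no biotype. KCNK15, of the family of leak potassium channels, had 35 and 35 counts against 1 and 0, and PTGIS, prostacyclin synthase, 28 and 27 against 0 and 1. ZNF813, a zinc finger gene of chromosome 19, had 27 and 29 against 2 and 1. HVCN1, a voltage-gated proton channel, had 23 and 22 counts against 0 and 0 (at least 7.80-fold lower), and GDF10, a ligand of the TGF-beta family, 20 and 23 against 0 and 0 (at least 7.45-fold lower). NALCN, the sodium leak channel, had 23 and 16 against 0 and 0, and the receptor tyrosine kinase AXL 14 and 17 against 0 and 0. Of genes with tissue-bound roles, the cardiac myosin light chain MYL3 had 17 and 18 against 0 and 0, and the muscle regulator MYOD1, which was not called, 13 and 12 against 1 and 2. Most of these genes were weakly expressed: their control level ran from 0.520 to 5.24 CPM with a median of 0.768.

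Of the 66, 20 had no count at all in the knockout, 61 lay off the stretches, and 55 had counts in both PRMT1 knockdown libraries. In those 2 libraries 14 of the 66 reached 10 counts in both and 11 had at most 3 in total, so the low counts were not confined to the knockout. The knockdown shares the controls, and its difference from the knockout was not tested. The filter on low counts was passed by 60 of the 66, and 51 were called, against 22.4% of all genes tested. The same counts chose these genes, so their calls are no separate finding. With no knockout count, a level of up to 0.143 CPM remains possible. The number depends on the threshold: it was 17 with at least 20 counts in each control library and 253 with at least 5. With control replicate 1 or 2 left out it was 206 or 169, and with knockout replicate 1 or 2 left out 221 or 211. Leaving out a library loosens the rule, so the number can only rise from 66. Their neighbours were called at about the background rate. Of the 53 switched-off genes with another tested gene within 100 kb, the nearest was lower in 7 cases, higher in 6 and not called in 40, with a median log2 change of -0.04 over those neighbours, against 12.1% lower and 10.3% higher of all genes tested.

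The reverse was seen in 17 genes, with at least 10 counts in each knockout library and at most 3 in total in the controls. They were 17 of 15154 genes with that knockout count (0.112%), and all 17 lay off the stretches. In the PRMT1 knockdown libraries 14 of the 17 had counts in both and 7 reached 10 counts in both, so counts of these genes were not confined to the knockout. The filter was passed by 16, and the fit called those 16, against 22.4% of all genes tested. These calls, too, rest on the counts that chose the genes and are no separate finding. FGFBP1, a secreted carrier of fibroblast growth factors (chr4:15935577-15938740), had 1 and 0 counts in the control libraries and 55 and 46 in the knockout, a ratio of 97.0 (95% exact binomial interval 17.02 to 3870). TOX3, an HMG-box nuclear protein, had 0 and 0 against 16 and 20, at least 5.79-fold higher. CASS4, an adhesion adaptor, had 0 and 0 against 15 and 14, at least 4.64-fold higher. Both neighbouring aldo-keto reductase genes on chromosome 10 appeared: AKR1C1 had 0 and 0 against 11 and 14, and AKR1C2 2 and 0 against 10 and 10. These are close copies of each other, so reads of one may be placed on the other. The interferon-inducible DNA sensor IFI16 had 2 and 0 against 17 and 15. The other 11 were the amine oxidase AOC3 and 10 noncoding or unclassified genes, among them the U5 snRNA copy RNU5A-8P (1 and 0 against 17 and 18) and the ribosomal protein pseudogene RPL4P6 (0 and 2 against 16 and 15), whose reads may come from near-identical copies. FGFBP1 stood alone in depth: with at least 20 counts required in each knockout library, 1 gene was left, and with at least 5 there were 150. With control replicate 1 or 2 left out there were 97 or 101, and with knockout replicate 1 or 2 left out 116 or 130. Here, too, the rule is looser with a library left out, so the number can only rise from 17.

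**Figure D2:**
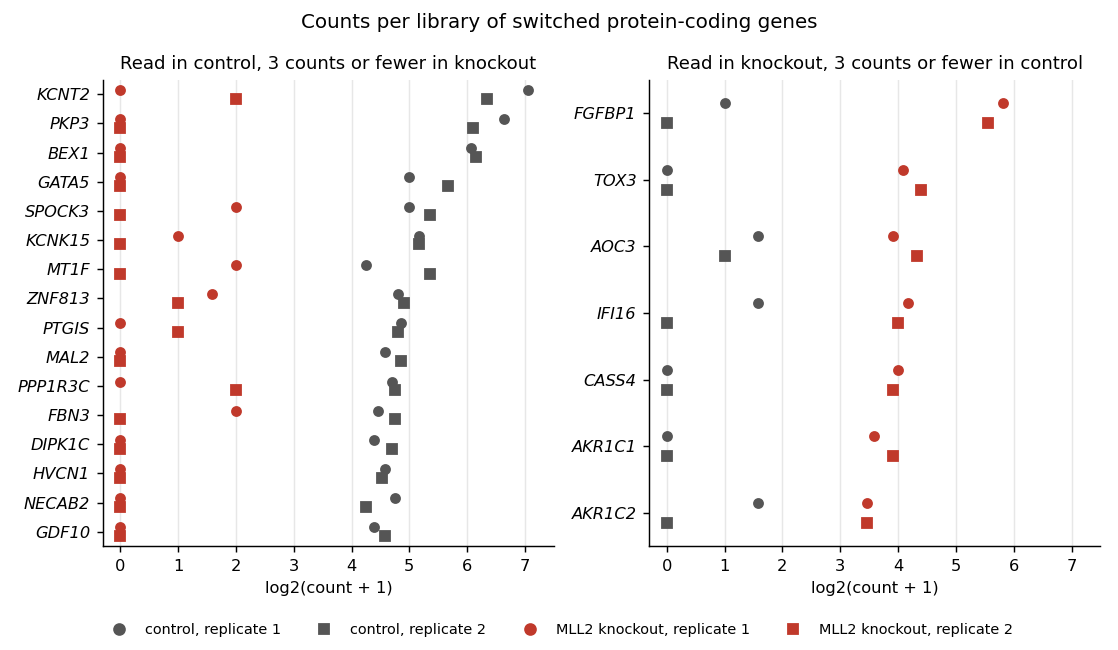
Counts per library, as log2(count + 1), of the 16 switched-off protein-coding genes with the most control counts (left) and of all 7 switched-on protein-coding genes (right); grey marks control and red knockout libraries, circles replicate 1 and squares replicate 2. On the left no red mark passes 3 counts, and on the right FGFBP1, at 55 and 46 counts, stands above the other 6 genes.

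The promoters of genes that rose strongly held fewer CG dinucleotides than those of genes that fell. Examples of both kinds, 4 in all, are shown as the 250 bases before the start given by RefSeq (GRCh38.p14), written 5′ to 3′ on the gene's strand with each CG dinucleotide in capitals. BEX1 and GDF10 had no count in the knockout, and FGFBP1 and the cadherin gene CDH7 rose in the knockout.
BEX1, chrX:103064172-103064421 (-): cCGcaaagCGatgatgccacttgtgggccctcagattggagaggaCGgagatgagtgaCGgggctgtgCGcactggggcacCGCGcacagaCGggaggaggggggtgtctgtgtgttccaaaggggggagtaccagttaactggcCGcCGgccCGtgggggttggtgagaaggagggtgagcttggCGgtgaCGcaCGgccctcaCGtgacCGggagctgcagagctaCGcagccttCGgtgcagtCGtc
GDF10, chr10:47299947-47300196 (+): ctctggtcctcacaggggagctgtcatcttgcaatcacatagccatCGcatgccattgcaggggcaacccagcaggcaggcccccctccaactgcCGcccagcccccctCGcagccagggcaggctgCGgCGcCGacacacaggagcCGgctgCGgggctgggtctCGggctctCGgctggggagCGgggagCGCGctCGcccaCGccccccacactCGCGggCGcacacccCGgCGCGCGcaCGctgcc
FGFBP1, chr4:15938741-15938990 (-): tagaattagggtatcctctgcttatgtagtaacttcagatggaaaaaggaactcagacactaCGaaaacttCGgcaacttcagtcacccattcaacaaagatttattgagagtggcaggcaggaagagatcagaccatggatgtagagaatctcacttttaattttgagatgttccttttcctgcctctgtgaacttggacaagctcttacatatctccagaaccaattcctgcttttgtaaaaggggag
CDH7, chr18:65750002-65750251 (+): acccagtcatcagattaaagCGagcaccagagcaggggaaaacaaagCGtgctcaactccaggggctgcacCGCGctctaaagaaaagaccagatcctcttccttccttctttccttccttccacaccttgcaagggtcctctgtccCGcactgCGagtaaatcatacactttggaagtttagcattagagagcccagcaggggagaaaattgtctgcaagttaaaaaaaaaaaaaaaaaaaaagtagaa
BEX1 held 19 CG in this window and GDF10 23, against 2 in FGFBP1 and 6 in CDH7.

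The dinucleotide CG, which reads the same on both strands, was counted in this window for 10803 tested protein-coding genes matched by symbol, of which 9379 had a start within 1000 bases of the start in the count files. At least 1 CG was found in 99.1% of these windows and in 93.9% of all 35116 promoters of the RefSeq table. The CpG ratio is the number of CG over the number expected from the C and G content of the window. Its median was 0.82 in 7900 genes not called and 0.86 in 1427 genes called higher by under 2-fold. In the 36 genes that rose by 2-fold to 4-fold it was 0.63, and in the 17 that rose by at least 4-fold 0.32, with a median of 5 CG. Of those 17, only 14 had a start within 1000 bases of the start in the count files. The windows of IFI16 and PDE3A, with 0 CG, lay 9023 and 202834 bases from that start, so they may not be the promoters of the counted RNA. The genes that fell by at least 4-fold (186) had a median ratio of 0.69, and the switched-off genes with a promoter (24) one of 0.72. The groups were also split by level. Among genes with an average log2 CPM of up to 2, the median ratio was 0.44 in 31 genes higher by at least 2-fold, 0.69 in 265 lower by at least 2-fold and 0.70 in 1577 not called. Above that level the same medians were 0.61 (22 genes), 0.82 (206) and 0.85 (6323). Exceptions ran both ways: TMEFF2, which rose, held 18 CG, and the teneurin gene TENM1, which fell, held 1. These are descriptions of groups of genes and were not tested.

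**Figure D3:**
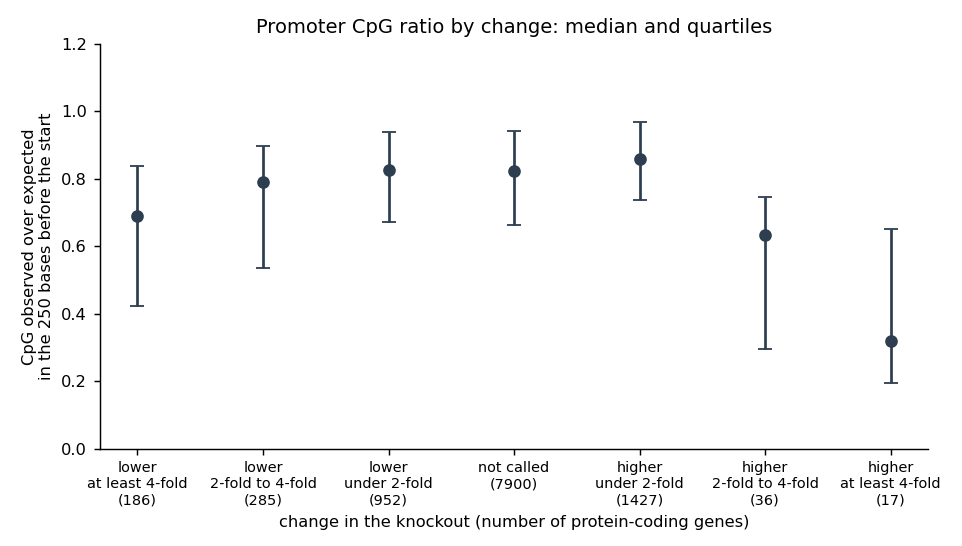
The vertical axis is the ratio of observed to expected CpG in the 250 bases before the start, with points at the median and bars from the lower to the upper quartile, for protein-coding genes grouped by call and size of change (number of genes in parentheses). The medians lie between 0.69 and 0.86 in the 5 groups from the strongest losses to small gains, and at 0.63 and 0.32 in the 2 groups that rose by 2-fold or more.

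Among genes still measured in every library, the losses off the stretches were led by a transporter and by secreted and developmental genes. SLC7A3, a carrier of cationic amino acids (chrX:70925579-70931125), stood at 20.96 and 21.996 CPM in the control libraries and at 0.0462 and 0.294 CPM in the knockout, where its counts were near the floor (-6.96 ± 0.38, adjusted p = 6.3e-11, with -6.16 without knockout replicate 1 and -8.68 without knockout replicate 2). SERPINF1, a secreted inhibitor of blood vessel growth (chr17:1762029-1777565), fell from 66.7 and 67.5 CPM to 5.82 and 7.06 CPM, a 10.4-fold drop (-3.38 ± 0.14, adjusted p = 1.7e-12). Control and knockout values did not overlap for either gene, as for 32.5% of all genes tested in this direction. BARX1, a homeobox gene of stomach and tooth development, fell from 12.4 and 13.8 CPM to 1.16 and 1.67 CPM (-3.21 ± 0.29, adjusted p = 1.1e-07). MFAP2, a microfibril protein, fell from 1.80 and 2.21 CPM to 0.139 and 0.0491 CPM (-4.32 ± 0.78, adjusted p = 4.4e-04, with -5.19 without knockout replicate 1). TENM1 fell from 52.1 and 48.9 CPM to 9.34 and 7.80 CPM (-2.56 ± 0.13, adjusted p = 2.8e-11).

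The testis antigen pair SAGE1 and CT45A10 was singled out after its values were seen. SAGE1 (chrX:135889205-135913061) fell from 17.7 and 16.4 CPM to 2.31 and 2.45 CPM (-2.84 ± 0.24, adjusted p = 7.1e-08). CT45A10, which starts 119 bases away on the other strand and belongs to a family of near-identical copies, went from 4.99 and 7.33 CPM to 0.509 and 0.687 CPM (-3.36 ± 0.41, adjusted p = 8.0e-06), a value that is uncertain for that reason.

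Genes that rose by a large factor were fewer. PDE3A, a phosphodiesterase that breaks down cyclic AMP (chr12:20369245-20684381), rose from 1.80 and 1.77 CPM to 9.71 and 12.4 CPM, 6.18-fold (2.63 ± 0.30, adjusted p = 2.9e-06). TMEFF2, a transmembrane protein with follistatin domains, rose from 0.2495 and 0.148 CPM to 1.76 and 2.35 CPM (3.33 ± 0.67, adjusted p = 0.00109). CDH7, a neural cadherin, rose from 1.90 and 1.92 CPM to 6.80 and 8.78 CPM (2.03 ± 0.29, adjusted p = 4.2e-05). The docking protein DOK6 (1.96 ± 0.38, adjusted p = 9.1e-04) rose as well. In this direction, too, the values of these genes did not overlap between groups, as for 30.1% of all genes tested. Among abundant genes, SMARCA1, the ATPase of an ISWI chromatin remodeller (chrX:129446501-129523500), was singled out after its values were seen. It rose from 194 and 178 CPM to 541 and 549 CPM, 2.94-fold (1.55 ± 0.08, adjusted p = 3.8e-11), with a range of 1.49 to 1.62 over the alternatives. SLC1A3, a glutamate transporter, rose from 43.6 and 44.5 CPM to 98.8 and 102 CPM (1.19 ± 0.09, adjusted p = 1.7e-08).

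**Figure D4:**
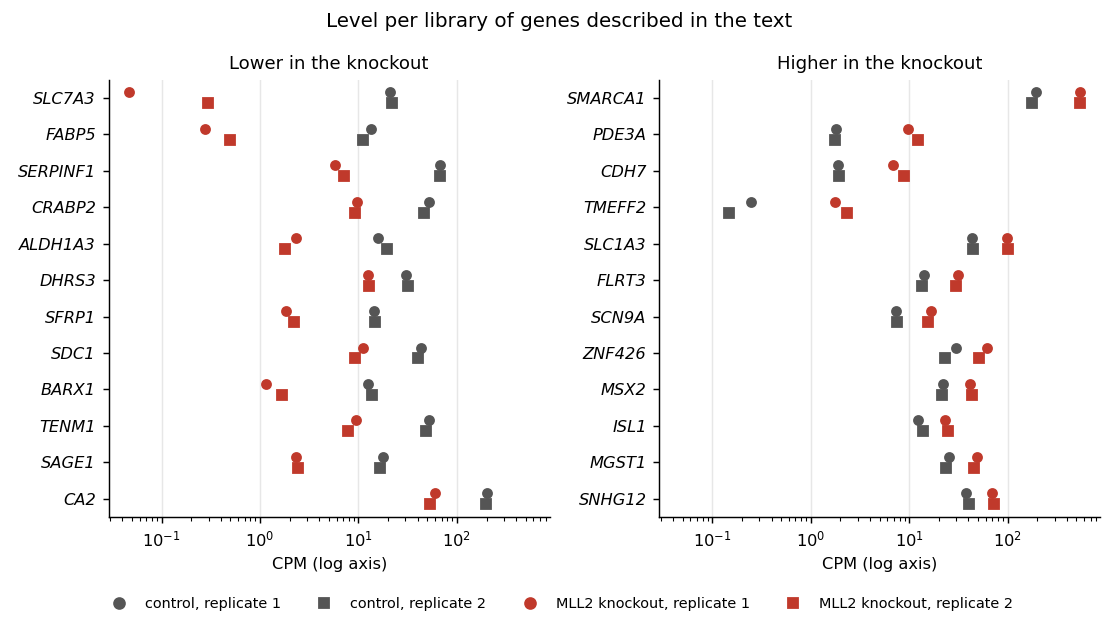
CPM on a log axis in each control (grey) and knockout (red) library for 12 genes that were lower and 12 that were higher in the knockout; circles are replicate 1 and squares replicate 2. For each of these genes the 2 grey and the 2 red marks stand apart, with knockout values from 0.0462 and 0.294 CPM in SLC7A3 to 541 and 549 CPM in SMARCA1.

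The gene lists below were written with earlier results of these data known, so their counts are descriptions, to be read against 10.3% of all tested genes called higher and 12.1% called lower. Of 19 subunits of the KMT2 complexes, 3 were higher and 0 lower, with a list median of 0.17 against -0.01 for all genes tested: WDR82 (0.38 ± 0.08), RBBP5 (0.39 ± 0.09) and KDM6A (0.32 ± 0.09). These were small changes. Without control replicate 1, control replicate 2, knockout replicate 1 and knockout replicate 2 in turn, 3, 1, 0 and 3 of these subunits were higher.

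Retinoic acid is made from vitamin A by aldehyde dehydrogenases and acts through nuclear receptors. Of 20 tested genes of its metabolism and reception, 6 were lower and 1 higher (median -0.23). ALDH1A3, one of the enzymes of its synthesis, fell from 15.9 and 19.6 CPM to 2.31 and 1.82 CPM (-3.10 ± 0.23, adjusted p = 1.0e-08), and ALDH1A2, another, from 94.0 and 83.2 CPM to 50.6 and 42.9 CPM (-0.92 ± 0.11, adjusted p = 3.6e-06). CRABP2, which carries retinoic acid to its receptors, fell from 51.8 and 46.5 CPM to 9.57 and 9.32 CPM (-2.38 ± 0.14, adjusted p = 2.1e-10). DHRS3, which turns retinaldehyde back to retinol, fell from 30.3 and 32.2 CPM to 12.6 and 12.9 CPM (-1.29 ± 0.15, adjusted p = 2.8e-06). So synthesis, its reverse step and transport were all among the lower members. The receptor RARA was the higher one (0.54 ± 0.19, adjusted p = 0.0470), and it lost its call when any 1 of the 4 libraries was left out and with DESeq2. The count of lower members was 4, 6, 4 and 5 without control replicates 1 and 2 and knockout replicates 1 and 2.

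WNT genes moved in both directions, 7 lower and 7 higher of 45 (median -0.04). The lower ones were the receptor FZD6 (-0.85), which lies in the 8q stretch, the receptor LRP5, the ligand WNT5B, and the ligands and secreted inhibitors WNT3A (-3.46 ± 0.62), WNT2B (-2.78 ± 0.46), DKK3 (-3.38 ± 0.60) and SFRP1, which fell from 14.5 and 14.8 CPM to 1.85 and 2.21 CPM (-2.85 ± 0.25, adjusted p = 7.1e-08). WNT3A, WNT2B and DKK3 were low in the knockout, at under 1 CPM, and single libraries moved their changes. The change of WNT3A was -2.85 without control replicate 2, that of WNT2B -3.45 without knockout replicate 2, and that of DKK3 -4.74 without knockout replicate 1 and -2.71 without knockout replicate 2. The 7 higher ones were the receptors FZD1, FZD3, LGR4 and LGR5, the receptor-degrading ligase ZNRF3, and CTNNB1 and APC, which act inside the cell. FZD1 went from 15.2 and 13.8 CPM to 21.8 and 24.0 CPM (0.66 ± 0.15, adjusted p = 0.00295). Without control replicates 1 and 2 and knockout replicates 1 and 2, 3, 1, 2 and 1 WNT genes were higher, so most of these calls needed all 4 libraries. Of 29 genes of FGF and ERK signalling output, 3 were higher and 6 lower (median -0.03). The feedback inhibitor IL17RD fell from 16.02 and 16.3 CPM to 9.06 and 9.27 CPM (-0.82 ± 0.17, adjusted p = 0.00160). The count of lower genes was 4, 1, 3 and 4, and that of higher genes 2, 1, 2 and 2, with the same libraries left out.

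Heparan and chondroitin sulfate chains sit on core proteins at the cell surface and bind growth factors. Of 43 genes of their synthesis and cores, 9 were lower and 1 higher (median -0.11), and 3 of the 9 lie in the low stretches. Core proteins were among the lower ones. SDC1, syndecan 1, fell from 42.9 and 40.6 CPM to 11.1 and 9.12 CPM (-2.04 ± 0.15, adjusted p = 4.6e-09), GPC3, glypican 3, from 59.2 and 57.3 CPM to 28.9 and 27.7 CPM (-1.04 ± 0.11, adjusted p = 1.9e-06), and SDC3, syndecan 3, from 26.4 and 24.9 CPM to 13.2 and 13.2 CPM (-0.96 ± 0.15, adjusted p = 1.3e-04). Of 21 claudins and tight junction genes, 7 were lower and 1 higher (median -0.26), and 6 of the 7 lie off the stretches. CGNL1, paracingulin, fell from 12.0 and 12.0 CPM to 4.25 and 3.09 CPM (-1.70 ± 0.25, adjusted p = 6.3e-05), and the polarity scaffold PATJ from 126 and 115 CPM to 77.8 and 77.3 CPM (-0.64 ± 0.09, adjusted p = 3.1e-05). The 7 became 3 and 4 without control replicates 1 and 2, and 3 and 4 without those of the knockout.

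More ion channel and surface receptor genes were lower than higher. These lists were not matched for level. Of all protein-coding genes with an average log2 CPM from 0 to 2, 19.02% were lower and 1.80% higher. Of 60 voltage-gated and potassium channel genes, 18 were lower and 2 higher (median -0.46). The inward rectifier KCNJ4 fell from 2.59 and 2.46 CPM to 0.416 and 0.294 CPM (-2.81 ± 0.60, adjusted p = 0.00190), beside the switched-off KCNT2 and KCNK15. SCN9A, a sodium channel of sensory neurons, rose from 7.29 and 7.58 CPM to 16.5 and 15.5 CPM (1.11 ± 0.17, adjusted p = 7.7e-05). The 18 became 5, 9, 6 and 12 without control replicates 1 and 2 and knockout replicates 1 and 2. Of 60 G protein-coupled receptors of the adhesion and other families, 14 were lower and 5 higher (median -0.33). GPR176 fell from 28.9 and 24.3 CPM to 10.1 and 14.4 CPM (-1.12 ± 0.16, adjusted p = 5.2e-05), and GPRC5C from 11.4 and 14.7 CPM to 4.25 and 5.15 CPM (-1.47 ± 0.23, adjusted p = 1.1e-04). The 14 became 9 without control replicate 1, and the 5 became 2, 0, 3 and 1 without control replicates 1 and 2 and knockout replicates 1 and 2. Of 34 synaptic adhesion genes, 6 were lower and 4 higher (median -0.18). Teneurins went apart: TENM1 fell, as given above, while TENM3 rose from 48.3 and 45.6 CPM to 71.9 and 71.8 CPM (0.61 ± 0.10, adjusted p = 1.3e-04). Their partner FLRT3 rose from 14.1 and 13.5 CPM to 31.2 and 30.1 CPM (1.15 ± 0.13, adjusted p = 3.6e-06). Without control replicates 1 and 2 and knockout replicates 1 and 2, 3, 2, 2 and 4 synaptic adhesion genes were lower and 4, 2, 2 and 4 higher.

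Developmental transcription factors that Polycomb is known to hold in check were called at about the background rate, 13 higher and 9 lower of 100 tested (median 0.13). The falls included GATA5 and BARX1, described above, and the 13 rises were all under 2-fold: MSX2, a homeobox gene of limb and skull, rose from 22.3 and 21.5 CPM to 42.0 and 43.6 CPM (0.97 ± 0.11, adjusted p = 4.7e-06), and ISL1, a LIM homeobox gene of motor neurons and heart, from 12.2 and 13.7 CPM to 23.2 and 24.5 CPM (0.88 ± 0.14, adjusted p = 1.3e-04). TFAP2A rose from 5.29 and 5.56 CPM to 10.8 and 10.2 CPM (0.95 ± 0.20, adjusted p = 0.00150). All 13 higher ones and 7 of the 9 lower ones lie off the stretches. The 13 became 6, 5, 11 and 7, and the 9 became 4, 5, 6 and 6, without control replicates 1 and 2 and knockout replicates 1 and 2. Of 21 tested imprinted genes, 6 were lower and 2 higher (median -0.19). SGCE, a sarcoglycan expressed from the paternal copy, fell from 22.01 and 19.98 CPM to 6.29 and 7.26 CPM (-1.63 ± 0.18, adjusted p = 1.8e-06). GNAS-AS1, the antisense RNA of the GNAS locus, had 14 and 17 counts in the control libraries and 0 and 0 in the knockout, at least 5.37-fold lower. Of the 6 lower imprinted genes 5 lie off the stretches. The 6 became 4, 4, 6 and 4, and the 2 became 0, 0, 1 and 0, with the same libraries left out. BEX2 and BEX4, next to the silent BEX1 on chromosome X, fell by 0.68 ± 0.10 (adjusted p = 6.6e-05) and by 0.61 ± 0.11 (adjusted p = 3.4e-04).

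Zinc finger genes named ZNF, many of which encode DNA-binding repressors, were called higher more often than lower, by small amounts. Of 452 tested, 118 were higher (26.1%) and 29 lower (6.42%), with a median of 0.22. On chromosome 19, where they lie in clusters, 69 of 208 were higher and 9 lower (median 0.33), against 68 higher and 106 lower of 900 other genes there (median -0.03). Off chromosome 19, 49 of 244 were higher and 20 lower (median 0.12). All 118 higher ones and 22 of the 29 lower ones lie off the 8q, 6q and 11p stretches. At 2-fold or more 6 ZNF genes were higher and 11 lower. ZNF426 rose from 29.8 and 22.9 CPM to 62.1 and 51.3 CPM (1.11 ± 0.13, adjusted p = 6.6e-06) and ZNF549 from 5.39 and 5.71 CPM to 13.3 and 11.9 CPM (1.18 ± 0.19, adjusted p = 1.7e-04). Other ZNF genes were nearly lost: ZNF433 went from 2.35 and 3.54 CPM to 0.139 and 0.196 CPM (-4.09 ± 0.59, adjusted p = 4.2e-05), and ZNF793 from 4.89 and 3.30 CPM to 0.555 and 0.343 CPM (-3.16 ± 0.46, adjusted p = 5.4e-05). Among ZNF genes with an average log2 CPM from 0 to 2, 1 of 50 was higher and 8 lower (median -0.18). Above that level 116 of 385 were higher (30.1%) and 21 lower (5.45%). Of all protein-coding genes above that level, 15.6% were higher and 14.6% lower. The 118 higher became 70, 67, 84 and 74, and the 29 lower 21, 14, 19 and 16, without control replicates 1 and 2 and knockout replicates 1 and 2. The higher count ran from 110 to 150 over other scalings, filters and tools.

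Metabolic lists were mixed. Of 31 genes of nucleotide synthesis, 9 were higher and 5 lower (median 0.12), among them CAD, which starts pyrimidine synthesis, at 121 and 104 CPM against 166 and 162 CPM (0.54 ± 0.10, adjusted p = 7.8e-04), and the ribonucleotide reductase subunit RRM2 at 153 and 153 CPM against 203 and 209 CPM (0.43 ± 0.08, adjusted p = 7.2e-04). The 9 became 3, 5, 4 and 5, and the 5 became 1, 2, 2 and 2, without control replicates 1 and 2 and knockout replicates 1 and 2. Of 34 NRF2 and glutathione genes, 7 were higher and 6 lower (median 0.02). MGST1, a membrane glutathione transferase, rose from 25.3 and 23.7 CPM to 49.3 and 45.4 CPM (0.95 ± 0.12, adjusted p = 8.8e-06), whereas the cystine carrier SLC7A11 fell from 88.6 and 89.2 CPM to 37.9 and 41.5 CPM (-1.16 ± 0.11, adjusted p = 1.5e-07). The 7 and 6 became 2 and 3, 1 and 3, 2 and 4, and 3 and 3 with the same libraries left out. Of 25 genes of creatine, polyamine and proline metabolism, 2 were higher and 5 lower (median -0.01), and the 5 became 2 without control replicate 1 and 3 without each of the other 3 libraries. The polyamine synthesis enzyme ODC1 rose from 399 and 383 CPM to 559 and 545 CPM (0.50 ± 0.09, adjusted p = 4.3e-04), and the catabolic enzyme SAT1 fell from 90.6 and 106 CPM to 63.9 and 59.2 CPM (-0.68 ± 0.11, adjusted p = 1.3e-04). Of 25 immediate early genes 7 were lower and 0 higher (median -0.31), led by ATF3, which fell from 63.7 and 72.8 CPM to 41.9 and 39.5 CPM (-0.74 ± 0.10, adjusted p = 2.3e-05). Off the stretches lay 5 of the 7, and the 7 became 6, 3, 4 and 4 with the same libraries left out.

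**Figure D5:**
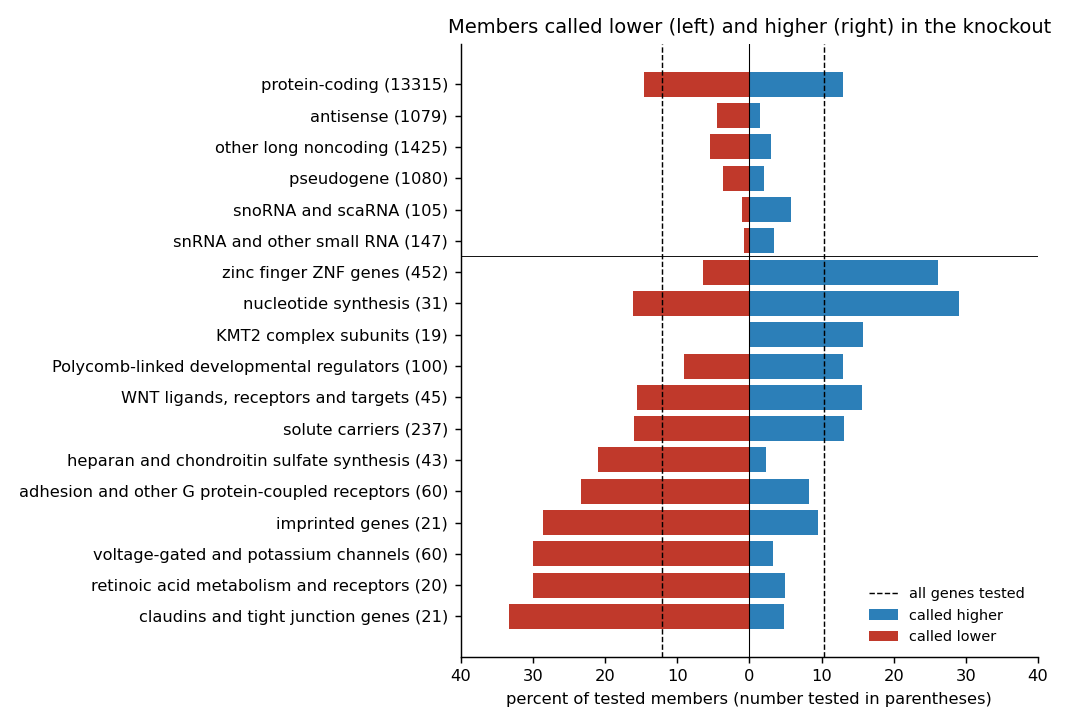
Percent of tested members called higher (blue, to the right) and lower (red, to the left) for 6 gene classes, above the line, and 12 lists, with dashed lines at the 10.3% and 12.1% of all genes tested and the number tested in parentheses. ZNF genes, with 26.1% higher, and channels, with 18 of 60 lower, lie past the dashed lines in opposite directions, and every noncoding class lies within them.

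Within the stretches the general decrease was modest, and a few genes went well past it. Only genes whose average log2 CPM exceeded 2 entered the medians of the stretches. These were -0.50 on the log2 scale over 42 genes of 11p, -0.30 over 278 of 6q and -0.45 over 252 of 8q. FABP5, a fatty acid carrier (chr8:81280536-81284777), fell from 13.4 and 11.1 CPM to 0.277 and 0.491 CPM (-4.99 ± 0.32, adjusted p = 7.6e-10). CA2, carbonic anhydrase 2, also on 8q, fell from 202 and 199 CPM to 59.9 and 53.9 CPM (-1.82 ± 0.10, adjusted p = 3.8e-11). A few genes rose against their neighbours: ACAT2, which makes acetoacetyl-CoA, rose from 154 and 143 CPM to 244 and 241 CPM on 6q (0.71 ± 0.09, adjusted p = 7.8e-06), and the zinc finger gene ZBTB2 from 17.6 and 21.9 CPM to 31.7 and 29.7 CPM (0.64 ± 0.13, adjusted p = 0.00132). The stretches were chosen because most of their genes were lower in earlier results of these data, so their low windows are no separate finding. Windows of 5 Mb were kept with at least 10 genes of average log2 CPM above 2. Of these, 23 of 27 in the stretches had a median at least 0.25 below 0, against 1 of 393 elsewhere. That one lies on chromosome 10 from 20 to 25 Mb (median -0.29 over 12 genes). Outside the stretches 10 windows had a median of 0.25 or above, the highest on chromosome 16 from 5 to 10 Mb (0.36 over 10 genes). DNA copy number was not analysed here.

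Fewer calls fell on noncoding genes, whose levels were also far lower. Over the 5 noncoding classes (antisense, other long noncoding, pseudogene, small nucleolar, and small nuclear and other small RNA), 91 of 3836 tested were higher (2.37%) and 167 lower (4.35%), against 1719 higher (12.9%) and 1948 lower (14.6%) of 13315 protein-coding genes. The median level was 1.14 CPM in the first and 28.7 CPM in the second. At like levels, with an average log2 CPM from 0 to 2, 4.33% of 1409 noncoding and 19.02% of 1614 protein-coding genes were lower, while 1.56% and 1.80% were higher. Above that level 8.92% of 706 noncoding and 14.6% of 10760 protein-coding genes were lower, and 6.94% and 15.6% higher. Up to a log2 CPM of 0, 2.50% of 1721 and 7.97% of 941 were lower, and 1.16% and 1.59% higher. Of 1079 antisense genes, 48 were lower and 16 higher (median -0.19). Small nucleolar RNAs leaned the other way, with 1 lower and 6 higher of 105, and 0 to 3 higher when 1 of the 4 libraries was left out. The lower antisense calls were 19, 18, 21 and 16, and the higher ones 7, 4, 8 and 4, without control replicates 1 and 2 and knockout replicates 1 and 2.

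Of 44 nuclear and structural long noncoding RNAs, 5 were higher and 7 lower (median 0.07), near the shares of all genes tested. Off the stretches lay 5 of the 7 lower ones, and the 7 became 4 without any 1 of the 4 libraries. Hosts of small nucleolar RNAs went both ways. MALAT1, a nuclear speckle RNA (chr11:65497688-65506516), fell from 409 and 372 CPM to 250.2 and 253 CPM (-0.64 ± 0.10, adjusted p = 1.8e-04). SNHG12, which hosts small nucleolar RNAs (chr1:28578538-28583132), rose from 37.9 and 40.4 CPM to 69.2 and 73.1 CPM (0.86 ± 0.10, adjusted p = 3.4e-06). SNHG3 rose from 92.4 and 80.3 CPM to 127 and 135 CPM (0.60 ± 0.09, adjusted p = 7.4e-05), and SNHG5, which lies in the 6q stretch, fell from 179 and 168 CPM to 126 and 112 CPM (-0.54 ± 0.09, adjusted p = 2.0e-04). LINC01619, on chromosome 12, rose from 0.948 and 0.394 CPM to 2.91 and 3.53 CPM (2.26 ± 0.48, adjusted p = 0.00193, with 3.02 without control replicate 1). SOX21-AS1, antisense to a neural transcription factor gene, fell from 7.54 and 6.94 CPM to 0.971 and 1.28 CPM (-2.68 ± 0.34, adjusted p = 9.5e-06). ASNSP1, a pseudogene of asparagine synthetase just before the 8q stretch (chr8:46579213-46638886), fell from 15.8 and 14.4 CPM to 1.85 and 0.491 CPM (-3.67 ± 0.35, adjusted p = 3.0e-07, with -4.93 without knockout replicate 1 and -3.02 without knockout replicate 2), and reads of its parent gene may be placed on it.

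Divergent gene pairs start close to each other on opposite strands. Of 1341 pairs with starts at most 1000 bases apart, both members were called in 56 and moved the same way in 41 of them. In 460 pairs 1 member was called. These numbers count pairs and not genes, so they cannot be set directly against the 22.4% of all single genes called. No rate expected for pairs was computed. In the 523 pairs of a coding and a noncoding gene, the noncoding member was lower in 21, a share close to the 4.35% of all noncoding genes, and its coding partner was then lower in 5, higher in 1 and not called in 15. The pairs named here were singled out after their values were seen. AFDN-DT, which starts 110 bases from the junction gene AFDN on 6q, fell from 3.19 and 3.002 CPM to 0.832 and 0.540 CPM (-2.16 ± 0.52, adjusted p = 0.00461), and AFDN itself was at 260.1 and 248 CPM against 220.3 and 222 CPM (-0.20 ± 0.08, adjusted p = 0.0818). Of the protocadherin pair on chromosome 4, 147 bases apart, PCDH10 fell from 37.8 and 36.4 CPM to 24.8 and 22.2 CPM (-0.66 ± 0.12, adjusted p = 3.4e-04) and PCDH10-DT from 4.34 and 5.51 CPM to 1.71 and 1.77 CPM (-1.50 ± 0.31, adjusted p = 0.00156). VAMP8, a vesicle fusion protein, fell from 6.94 and 6.10 CPM to 1.62 and 1.47 CPM (-2.07 ± 0.32, adjusted p = 1.0e-04), whereas GGCX, which starts 15 bases away, was at 44.7 and 43.2 CPM against 51.7 and 47.3 CPM (0.17 ± 0.10, adjusted p = 0.240). In the pairs of AFDN and of VAMP8, 1 member was called and the other not, and the difference between members was not tested.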

How the data were processed

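Total RNA was extracted with TRIzol and made into libraries with the TruSeq Stranded Total RNA Gold kit, per the labels' protocols. For each library the authors deposited a table of raw read counts by gene. Tools named in the submitters' processing notes were FastQC 0.11.4, Trim Galore 0.6.10, STAR 2.7.5a (hg38), featureCounts 1.5.0-p1 and DESeq2 1.36.0. Per the file headers featureCounts was version 2.0.1, with GENCODE 34, a minimum mapping quality of 10 and strand setting 2. Reads that match several places equally well are thus mostly lost, and antisense genes were counted by strand.

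Symbols matched 60370 of 60669 genes, and biotypes (GENCODE 29) 58482. All 6 libraries were fitted in edgeR 4.0.16 (R 4.3.3; filterByExpr, TMM, glmQLFit and glmQLFTest, a term per group, 3 residual degrees of freedom), after a test on simulated data. Alternatives were DESeq2 1.42.0, other scalings, filters and thresholds, a length offset, a replicate block and left-out libraries.

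Members, stretches and the 28 lists were chosen with earlier results of these data known. Genes were named by a rule: the MLL2 genes; the switched genes with the most counts (up to 30 a direction); the largest called changes with at least 1 CPM and no overlap (up to 15 coding genes a direction off the stretches, 5 within them, and 10 noncoding anywhere); and up to 4 members a list by adjusted p. The text gives a selection of them. Beyond the rule, chosen after their values were seen, are AXL, MYOD1, WNT3A, FZD1, LRP5, WNT5B, the other higher WNT genes, SDC3, RARA, TFAP2A, ZNF433, ZNF549, ZNF793, SOX21-AS1 and those marked so in the text. Some genes are not reported here.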

Additional observations from a re-analysis of the deposited data

How the results depend on the processing

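Called genes numbered 1908 to 5492 with 1 library left out (736 to 2698 higher, 1172 to 2794 lower). Off the stretches they numbered 1665 to 5050 (734 to 2681 higher, 931 to 2369 lower), and 100 to 366 among noncoding genes (44 to 127 higher, 56 to 239 lower). At 2-fold or more, 79 to 140 were higher over all genes and 79 to 138 off the stretches. The low ends came without control replicate 2 and the high ends without PRMT1 knockdown replicate 2. Switched-off genes numbered 169 to 221 with 1 library left out, 17 with at least 20 counts in each control library, 253 with at least 5, and 20 with no count in the knockout. Switched-on genes numbered 97 to 130, 1, 150 and 4 under the same settings. For both kinds a left-out library loosens the rule and can only raise the count. The log2 change of KMT2B ran from -0.054 without control replicate 1, where it turned negative, to 0.10 without control replicate 2.

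With the control and knockout libraries alone, 16575 genes were tested and 5386 were called (2668 higher, 2718 lower). With the replicate number as a block, 4512 genes were called (2139 higher, 2373 lower). The deviations of same-numbered control and knockout libraries correlated at 0.063 over 11509 genes, those of control and PRMT1 knockdown at 0.044 and those of both perturbed groups at 0.197, so the numbers were not taken to pair the samples. Of 3252 values of named genes under an alternative, 2950 kept their direction and their side of the threshold, 286 lost the call, 15 gained it and 1 changed sign. The higher share of calls was 46.1%, and 50.9% with DESeq2. With 2 libraries a group, changes of genes under about 1 CPM are poorly measured.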
